A study of Mus musculus with 192 samples.

Results

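Histones are the proteins around which DNA is wound. The genes described here are the histone genes that could be recognised by name among 24264 genes counted in single mouse embryonic stem (ES) cells. A gene was taken when its name began with Hist1h, Hist2h, Hist3h, Hist4h, H2af, H3f3 or H1f, which gave 89 table rows. Of these, 75 carry Hist names and are called cluster genes, and 14 carry H2af, H3f3 or H1f names and are called replacement genes. The rule uses names and no measured value, but it was set with earlier results of these data known.

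Cells were of the R1 mouse ES line, grown on irradiated embryonic fibroblast feeders that were then left to settle out, cleared of dead and dying cells by annexin V beads, and frozen. All cells came from 1 culture with no treatment or genotype set against another, so they are 1 sample, values are spreads between wells, and no p-value is given. Single cells were caught in the 96 wells of a microfluidic chip, lysed with a mix of synthetic spike-in RNAs, and carried through 21 PCR cycles. The same libraries were also sequenced after 9 further cycles, which makes 192 samples of 2 library forms, but the molecule table holds 1 column per well, and each column belongs to both forms.

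Wells held from 8774 to 573648 gene molecules and fell into separate ranges, 45 low-RNA wells with at most 35543 and 51 RNA-rich wells with at least 51390. Levels are molecules per 10000 gene molecules of the well. The ES cell label was checked with 13 marker genes, whose summed level had a median of 61.3 and was mostly Dppa5a. All of them were detected, but not in every well, with Esrrb found in the fewest, 51. The 8 trophectoderm markers, mostly Krt18 and Krt8, summed to a median of 5.06 but reached 74.8 in H07. No result was recomputed without wells high in trophectoderm markers. Spike-in totals stood apart in C03, H03 and H12, and the 15 feeder fibroblast markers stood far above the other wells in D02 and E02. Results with and without these wells are given where they differ.

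Most cluster genes are replication dependent: their messenger RNAs are made in S phase, when new DNA must be packed, and end in a conserved stem-loop in place of a poly(A) tail. Stem-loop binding protein, Slbp, holds this end during processing and translation. Replacement genes mostly lie outside the large clusters, carry introns in most cases, give polyadenylated messengers and are read throughout the cell cycle. Some cluster genes also give polyadenylated messengers, above all in cells that have left the cycle. The labels describe the captured RNA as polyadenylated.

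The stem-loop is the sequence that marks the cluster messengers, and the bases before it differ between genes. The conserved histone stem-loop, 16 bases of which 5 were left free, was searched on the sense strand of GENCODE M21 transcripts (GRCm38). It was found for 44 of 68 cluster symbols and for 1 of 14 replacement symbols, H2afx, against 89 of 55450 genes in all (0.161%). The annotated transcripts of several other cluster genes, such as Hist1h2an and Hist1h2ak with 393 bases each, hold little beyond the coding part, so a missing match there says only that these letters are not in the annotated stretch. The sequences below run 5′ to 3′ as DNA letters, with the stem-loop in capitals and the 14 bases before it in lower case. They belong to the most abundant cluster gene and its near copy, to the most abundant cluster gene with only uniquely mapped reads, to 1 example each of H4, H3 and H2B, and to H2afx.
Hist1h2ap: agaaaaaaaaaaaaGGCTCTTTTCAGAGCC
Hist1h2ao: agaaaaaaaaaaaaGGCTCTTTTCAGAGCC
Hist1h2ae: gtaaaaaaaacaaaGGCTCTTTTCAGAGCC
Hist1h4d: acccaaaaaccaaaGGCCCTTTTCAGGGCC
Hist1h3c: gctatttaaaaaaaGGCTCTTTTAAGAGCC
Hist1h2bg: actcctaacccaaaGGCTCTTTTCAGAGCC
H2afx: cacacctccacaaaGGCCCTTTTAAGGGCC

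These genes lie on chromosome 13 apart from H2afx. In GENCODE M21 on GRCm38 they span chr13:21833026-21833507 on the minus strand (Hist1h2ap), chr13:21810465-21810944 on the plus strand (Hist1h2ao), chr13:23570517-23571220 on the minus strand (Hist1h2ae), chr13:23581598-23582735 on the plus strand (Hist1h4d), chr13:23744973-23745602 on the minus strand (Hist1h3c), chr13:23571396-23572013 on the plus strand (Hist1h2bg) and chr9:44334694-44336077 on the plus strand (H2afx). Hist1h2ap and Hist1h2ao have the same 30 bases, with an unbroken run of 12 adenines before the stem-loop. Hist1h2ae has a run of 8 in the 30 bases before it, Hist1h3c has 7, Hist1h4d has 5, and Hist1h2bg and H2afx have 3.

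Replacement genes gave more counted molecules than cluster genes. The counts are of captured RNA, which the labels describe as polyadenylated, and how well messengers without a poly(A) tail were captured was not tested. The 14 replacement genes held 44886 molecules and the 75 cluster genes 21123, so cluster genes made up 32% of histone molecules (exact binomial 95% interval 31.6% to 32.4%, which covers counting error only). In single wells this share ran from 11.5% to 62.8% with a median of 30.6%. The summed level of cluster genes was 28.3 ± 14.5 (SD over 96 wells), with a lowest of 9.80 in H12, a median of 25.4 and a highest of 103 in A03. The summed level of replacement genes was 57.7 ± 15.9, with a lowest of 30.4 in D02, a median of 55.4 and a highest of 92.8 in G04. The cluster sum varied more between wells, with a coefficient of variation (CV) of 51.1% against 27.6% for replacement genes.

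**Figure D1:**
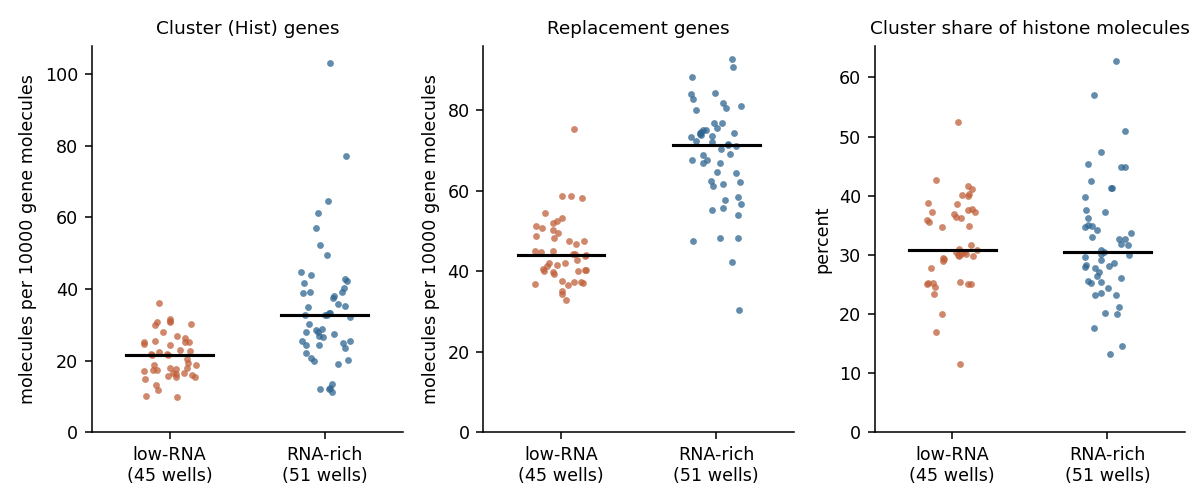
Summed level of the cluster genes (left), of the replacement genes (middle), both in molecules per 10000 gene molecules, and percent of histone molecules from cluster genes (right), with 1 point per well and the median as a bar. Low-RNA wells had medians of 21.5 for cluster and 44.1 for replacement genes and RNA-rich wells 32.6 and 71.3, while the median share was 30.8% in low-RNA and 30.5% in RNA-rich wells.

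How well a histone gene can be told from its copies differed widely. Reads that matched several places were counted at their most 5′ exonic match, per the file header, and 35.8% of cluster molecules came from uniquely mapped reads, against 65.5% of replacement molecules and 73.3% of all gene molecules. Of the 79 detected members, 39 had at least 90% unique molecules and 26 had under 50%, of which 24 were cluster genes and the others H3f3b and H2afy3. A group of 13 cluster rows had no unique molecule at all, so their levels are shared with copies and are uncertain. Among members with at least 20 molecules, Hist1h2an with 26.9% and H2afy3 with 37.5% lay just below 50% unique, and Hist1h4b with 57.1% and Hist1h2aa with 71.9% just above.

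Detection reached 68 cluster and 11 replacement genes. The 10 members at 0 included the testis histone genes Hist1h1t, Hist1h2ba and H1fnt, the oocyte linker histone gene H1foo, and H2afb1. The others at 0 were Hist2h3c1, both rows of Hist2h2aa2 and 1 row each of Hist1h2br and Hist1h2bq, where reads with several matches may have been placed on another copy. A count of 0 in 6847551 gene molecules allows a level of up to 0.00438 (3 counts, counting error only). Members found in all 96 wells were H2afz, H3f3b, H3f3a, H2afv and Hist1h2ap_loc1. When every well was thinned to 8774 molecules, 65 cluster and 11 replacement genes were still found. At that depth a low-RNA well showed a median of 10 cluster genes (4 to 17) and an RNA-rich well 14 (7 to 24), against 19 and 43 as counted.

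Among the replacement genes, 3 held most of the molecules. H2afz encodes H2A.Z, the H2A variant of promoter nucleosomes, and lies at chr3:137864487-137866922. It was the most abundant histone gene, at 28.2 ± 7.65, and ranged from 14.6 in D02 through a median of 27.1 to 49.4 in B07, with 85.8% unique molecules. H3f3b and H3f3a both encode H3.3, the H3 variant placed outside replication. H3f3b, at chr11:116021912-116027962, stood at 16.6 ± 6.77 and ranged from 7.54 to 42.3 with a median of 14.9, but only 12.4% of its molecules were unique. H3f3a, at chr1:180800832-180813943, stood at 8.21 ± 3.74 with a range of 0.956 to 19.6, a median of 7.74 and 87.9% unique. No well lacked any of these 3 genes. Per kilobase of the table's transcript length, which adds 100 bases to short gene models, H2afz had a mean level of 26.6, H3f3b 7.94 and H3f3a 6.98. Orders in the text go by molecules per 10000. On the per-kilobase scale the short Hist1h2ap_loc2, at a level of 16.8, came second after H2afz, and Hist1h2ap_loc1 (8.11) came before H3f3b. Hist1h2ah (2.33), Hist1h2ae (2.08), Hist1h4d (1.95) and Hist1h2an (1.54) came before H2afv (1.38).

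The other replacement genes were lower. H2afv, which encodes the second form of H2A.Z, had a mean level of 2.40 and ranged from 0.450 to 5.75 over the wells. H2afx encodes H2A.X, the variant phosphorylated at DNA breaks, and had 0.831, with a median of 0.770 and a highest well of 3.85. H2afj, a further H2A variant, had 0.804, with a highest well of 3.89. H2afy, which encodes macroH2A1, had 0.313 and was found in 61 wells. H1fx, a linker histone gene, had 0.130 and was found in 42 wells. Below 0.1 lay H2afy2 (0.0997), H1f0 (0.0654) and H2afy3 (0.0350).

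**Figure D2:**
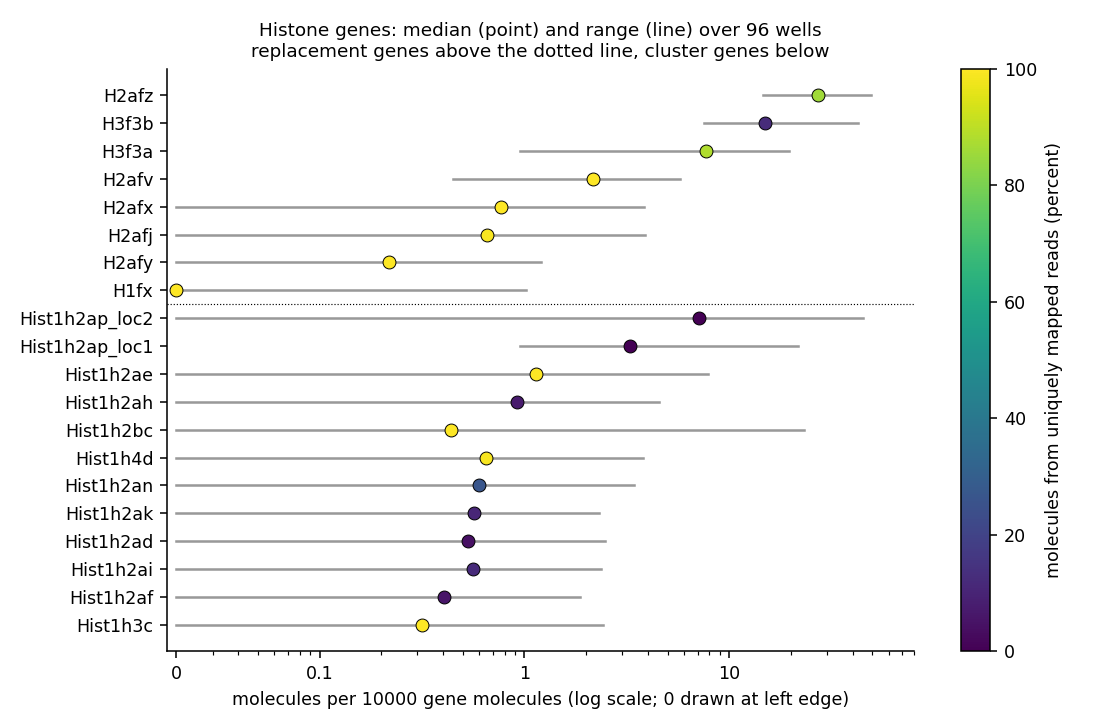
Median (point) and lowest to highest well (line) of the level of 8 replacement genes and the 12 cluster genes with the highest means, in molecules per 10000 gene molecules on a log axis, with 0 drawn at the left edge. Point colour is the percent of molecules from uniquely mapped reads: H2afz, H3f3a, H2afv, Hist1h2ae, Hist1h2bc, Hist1h4d and Hist1h3c were mostly unique, while both Hist1h2ap rows had 0%.

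H2A genes dominated the cluster molecules. They gave 14808 of 21123 (70.1%), H2B genes 2406 (11.4%), H3 genes 1673 (7.92%), H4 genes 1647 (7.80%) and H1 genes 589 (2.79%). The H2A sum was found in every well, with a lowest of 3.67, a median of 17.8 and a highest of 88.2. H2B had a median of 2.34, H3 1.89, H4 1.48 and H1 0.697, and wells with 0 occurred for each of these. Only 15.0% of H2A molecules were unique, against 78.4% for H2B, 79.7% for H3, 93.4% for H4 and 99.5% for H1. By genome cluster, Hist1 genes gave 93% of cluster molecules, Hist2 genes 5.79%, Hist3 genes 0.857% and Hist4h4 0.365%.

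A single H2A gene name, Hist1h2ap, held 9144 molecules in its 2 rows, 43.3% of all cluster molecules. None of them was unique. Both rows, Hist1h2ap_loc1 (mean level 4.00, plus strand) and Hist1h2ap_loc2 (8.27, minus strand), may share reads with Hist1h2ao, the near copy. Each has a Hist1h2ao row of the same number and strand, and with it loc1 held 3002 molecules and loc2 6428. How these molecules divide between the names Hist1h2ap and Hist1h2ao is therefore uncertain. The sum of both Hist1h2ap rows ranged from 1.22 in H12 through a median of 10.5 to 66.8 in A03. A03 therefore led the cluster sum through H2A: it had 88.2 for H2A, against 4.18 for H2B, 6.88 for H3 and 1.48 for H4. Next came A09 with a cluster sum of 77.1 and A10 with 64.5. Without A03 the median cluster sum was 25.3, against 25.4 with it.

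The most abundant cluster gene with only unique molecules was Hist1h2ae, also an H2A gene, at 1.67 ± 1.54. It was found in 94 wells, with a median of 1.14 and a highest of 7.83 in B09. Hist1h4d, an H4 gene, had 0.801, and Hist1h3c, an H3 gene, 0.414, with highest wells of 3.80 and 2.41. Hist1h2bc, an H2B gene, had a mean of 0.806 but a median of 0.437, since a single well, D02, stood at 23.1. The remaining H2A genes among the 12 highest, Hist1h2ah (1.13), Hist1h2an (0.762), Hist1h2ak (0.658), Hist1h2ad (0.656), Hist1h2ai (0.653) and Hist1h2af (0.481), had from 3.97% to 26.9% unique molecules and are uncertain. Of the 75 cluster genes, 71 had a mean level below 1.

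Longer adenine runs before the stem-loop went with higher levels to a modest degree. Among the 44 cluster genes with the stem-loop, the run in the 30 bases before it had a median of 3. The 44 include Hist1h1t, Hist2h2aa2 and Hist2h3c1, which had 0 molecules. The 3 genes with a run of at least 8 were Hist1h2ap, Hist1h2ae and Hist1h2ao, and together they held 10830 molecules, 51.3% of all cluster molecules. Their mean levels by name were 12.3, 1.67 and 0.453. The division between Hist1h2ap and Hist1h2ao is uncertain. Taken by row number, with both names together, loc1 had a mean level of 4.27 and loc2 8.45. The correlations below use the division by name. Genes with shorter runs had a median level of 0.129 and reached at most 0.801, in Hist1h4d. The limit of 8 is the run length of Hist1h2ae itself. Runs elsewhere in the transcripts were not used. Hist1h2ac, Hist1h2be and Hist1h1d have runs of 15, 11 and 8 elsewhere, at mean levels of 0.102, 0.157 and 0.0394. Over the 44 genes, Spearman's rho between run length and mean level was 0.39, and over the 11 H2A genes 0.69. Without Hist1h2ap and Hist1h2ao rho was 0.29 over 42 genes, and it was 0.29 over the 31 genes with at least 50% unique molecules. In both of these sets only Hist1h2ae had a run of at least 8. The H2A value was not recomputed without Hist1h2ap and Hist1h2ao, which have the same 30 bases and 0% unique molecules. These are descriptions over genes that share wells and, for the H2A genes, reads. Reverse transcription used a primer that the labels describe only by name, and whether an adenine run bears on capture was not tested.

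**Figure D3:**
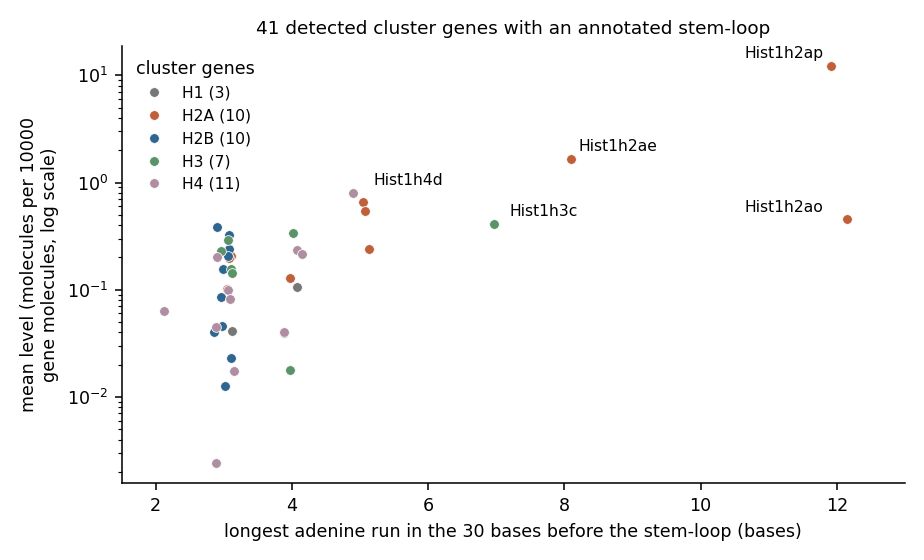
Mean level over 96 wells (molecules per 10000 gene molecules, log axis) against the longest adenine run in the 30 bases before the stem-loop, for the cluster genes with a stem-loop and at least 1 molecule, coloured by histone type. Points are shifted slightly sideways so that they can be told apart. Hist1h2ap, with a run of 12, stands highest at 12.3, and genes with runs below 8 reach at most 0.801. The division of molecules between Hist1h2ap and Hist1h2ao is by name and uncertain.

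Many Hist1 genes lie head to head, an H2A and an H2B gene sharing the DNA between them. The RefSeq promoter table (GRCm38.p6, a fixed window around each gene start) held 68 of the 82 member symbols. CCAAT, searched on both strands, occurred in 49 of 58 cluster promoters (84.5%) and 6 of 10 replacement promoters, against 37.4% of all 32851 promoters. TATAAA, on both strands, occurred in 35 of 58 cluster promoters (60.3%) and 1 of 10 replacement promoters, against 13.6% of all. The 2 motifs share no base in the windows printed here. The first window below is that of Hist1h2bg (chr13:23571150-23571449, plus strand), which overlaps that of its partner Hist1h2ae by 279 bases on the other strand, and the second is that of H2afz (chr3:137864237-137864536, plus strand), the most abundant replacement gene. Capitals mark CCAAT or TATAAA on either strand.
Hist1h2bg: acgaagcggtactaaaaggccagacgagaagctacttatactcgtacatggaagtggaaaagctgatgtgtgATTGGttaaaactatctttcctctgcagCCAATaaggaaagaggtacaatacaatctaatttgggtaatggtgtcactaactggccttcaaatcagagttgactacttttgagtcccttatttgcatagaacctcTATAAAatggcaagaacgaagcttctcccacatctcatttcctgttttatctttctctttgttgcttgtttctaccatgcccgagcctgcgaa
H2afz: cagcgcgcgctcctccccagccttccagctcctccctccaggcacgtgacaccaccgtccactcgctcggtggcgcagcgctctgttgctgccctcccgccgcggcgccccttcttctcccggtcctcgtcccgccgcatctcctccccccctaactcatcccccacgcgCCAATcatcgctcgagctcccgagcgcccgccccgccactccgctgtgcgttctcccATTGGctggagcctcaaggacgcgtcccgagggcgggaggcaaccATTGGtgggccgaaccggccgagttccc

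Partners that share a promoter stretch differed in level. Of 8 such pairs, the H2A gene had the higher level in 7, but in only 2 pairs were both genes at least 50% unique, and these differed in direction. Hist1h2ae had a level 4.38 times that of Hist1h2bg (1.67 against 0.382), while Hist1h2ag had 0.199 and Hist1h2bj 0.240. Across the 51 RNA-rich wells, rho between partners ran from -0.27 to 0.32, with the highest for Hist1h2ae and Hist1h2bg.

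Low-RNA wells had lower histone levels than RNA-rich wells, for cluster and replacement genes alike. The cluster sum averaged 21.4 ± 6.21 in low-RNA wells (9.80 to 36.1) and 34.4 ± 16.8 in RNA-rich wells (11.4 to 103), a ratio of 0.622. The replacement sum averaged 45.1 ± 8.03 in low-RNA wells (32.7 to 75.3) and 68.8 ± 12.5 in RNA-rich wells (30.4 to 92.8), a ratio of 0.655. The ranges overlapped for both sums. Over all members the cluster share differed little. It was 32.6% of histone molecules in low-RNA wells (exact binomial 95% interval 31.5% to 33.8%) and 31.9% in RNA-rich wells (31.6% to 32.3%). For members with at least 50% unique molecules the ratios lay further apart, at 0.520 for cluster and 0.673 for replacement genes. Cluster genes under 50% unique had a ratio of 0.679.

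Within the cluster, the H4 and H3 sums stood lowest relative to RNA-rich wells, but the types also differ in their share of unique molecules. H4 genes averaged 1.04 in low-RNA wells and 2.69 in RNA-rich wells (ratio 0.388), and H3 genes 1.36 and 2.77 (0.493). H2B genes averaged 2.21 in low-RNA wells and 4.07 in RNA-rich wells (0.543), H1 genes 0.623 and 0.911 (0.683), and H2A genes 16.1 and 23.9 (0.675). Of the named genes, Hist1h4d averaged 0.455 in low-RNA wells and 1.11 in RNA-rich wells, Hist1h2ae 0.984 and 2.28, and Hist1h3c 0.247 and 0.562. Hist1h2ae, an H2A gene with only unique molecules, had a ratio of 0.431, while 15.0% of all H2A and 93.4% of all H4 molecules were unique. The H4 and H3 sums each rest on a median of 2 molecules per low-RNA well. Of the replacement genes, H3f3a averaged 5.66 in low-RNA wells and 10.5 in RNA-rich wells, and H2afz 23.4 and 32.3.

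Of 50 members with a mean level of at least 0.1, 16 had a ratio of 0.5 or less and 0 a ratio of 2 or more. Of all 7210 genes with such a level, 11.5% had a ratio of 0.5 or less and 5.03% a ratio of 2 or more. A ratio under 1 was found for 46 of the 50 members, where 70.4% of all genes had one. Their median log2 ratio was -0.70, beside -0.36 over all genes. The 16 were 15 cluster genes and H1fx (0.413), and the 4 members above 1, Hist1h2ah (1.05), Hist1h2ad (1.14), Hist1h2ao_loc1 (1.08) and Hist1h2ac (1.40), were all cluster genes. Of these 4, Hist1h2ah had 7.42% unique molecules, Hist1h2ad 3.97%, Hist1h2ao_loc1 0% and Hist1h2ac 100%. These values depended on the scale. With mitochondrially encoded genes and Rn45s left out of the total, the median log2 ratio over all genes moved to 0.06 and that of members to -0.25, 7 of 50 members and 3.11% of all genes had a ratio of 0.5 or less, and the summed ratios were 0.842 for cluster and 0.878 for replacement genes.

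The ranges of wells differed in more than histones. The median share of mitochondrially encoded molecules was 29.1% in low-RNA wells and 10.4% in RNA-rich wells. ES cell markers summed to a median of 55.5 in low-RNA wells (40.2 to 147) and 94.8 in RNA-rich wells (19.5 to 228), and feeder markers to 12.4 (6.07 to 19.4) and 9.05 (5.02 to 193). The part of these differences in the histone values was not tested, and loss of RNA from a cell cannot be told apart from a lower level in an intact one.

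A few histone genes varied between wells beyond the technical level. That level was a fit of squared CV against mean over 62 spike-ins, and a gene was called when its squared CV was at least 2 times the fit, with all wells and again without its highest well, at a mean of at least 1 molecule. Of 46 members with such a mean, 6 were called, while the background over all genes was 5.91% of 6190. They were Hist1h2ap_loc2 (8.35 times the fit), H3f3b (4.39), Hist1h2ap_loc1 (4.08), H3f3a (3.12), Hist1h2ae (2.93) and H2afz (2.81). These include the 5 most abundant members. At a mean of at least 5 molecules the same 2-fold limit called 6 of 13 members, where it called 16.3% of all genes.

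Within RNA-rich wells, 6 of 55 members were called, where 7% of all genes were, and H3f3a was no longer among them (2.12 times the fit, and 1.97 without its highest well). Hist1h2bc was called there, at 33.7 times the fit and 2.74 times without D02. Within low-RNA wells 0 of 16 members were called, where 0.594% of all genes were. In those wells the median count behind the cluster sum was 45 molecules per well, against 347 in RNA-rich wells.

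Wells D02 and E02 had the highest levels among RNA-rich wells for a few histone genes. Feeder markers summed to 193 in D02 and 169 in E02, against 5.02 to 76.9 in the other 49 RNA-rich wells. In D02, 10 of the 15 feeder markers were detected, with Lgals1 at 73.2 and S100a6 at 43.4, but Col1a1, Col1a2, Col3a1, Thbs2 and Thy1 were at 0. In E02 all 15 were detected, with Col1a1 at 2.57 and Thbs2 at 7.35. ES cell markers were lower in both, at 23.5 and 29.6, against a median of 94.8 over RNA-rich wells, and Dppa5a was at 15.4 in D02 and 22.2 in E02, against a median of 69.6 in the other RNA-rich wells. These wells and the genes named here were picked after their values were seen.

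Hist1h2bc, at chr13:23684199-23692908, stood at 23.1 in D02 (128 molecules) and 4.41 in E02 (24 molecules), and the other 49 RNA-rich wells had a median of 0.422 and a highest of 2.29. All of its molecules were unique. Both wells lay above all others for this gene. Both rows of Hist2h2aa1 stood at 3.12 in E02 (17 molecules each), against highest other wells of 2.42 and 1.80. No molecule of either row was unique, so the gene behind them is uncertain. Hist1h2be stood at 2.02 in E02 (11 molecules), against at most 1.01 in the others. Hist1h1c, which encodes the linker histone H1.2, stood at 0.904 in D02 (5 molecules), against at most 0.542 in the other RNA-rich wells. The low-RNA well F08 had 1.03 for Hist1h1c. These genes were the members, of the 50 with a mean of at least 0.1, above every other RNA-rich well in D02 or E02. There were 2 such rows in D02 and 4 in E02, with both Hist2h2aa1 rows counted. The share over all genes was not computed, so these counts are no result about histone genes as a set.

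H2afz and H3f3b went the other way. H2afz had its lowest level of any well in D02, at 14.6, and 31.2 in E02, against a median of 32.8 in the other RNA-rich wells. H3f3b stood at 8.67 in D02 and at its lowest of any well, 7.54, in E02, against a median of 20.3. D02 also had the lowest sums of all wells for the G1/S list (14.8) and the G2/M list (21.5). In E02 the G1/S list summed to 35.8 and the G2/M list to 29. Without D02 and E02, Hist1h2bc had a ratio of 0.956 between low-RNA and RNA-rich wells in place of 0.488, it was no longer called above the technical level within RNA-rich wells, and 15 members in place of 16 had a ratio of 0.5 or less, where 11.4% of all genes did. Whether these wells held feeder fibroblasts was not tested.

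**Figure D4:**
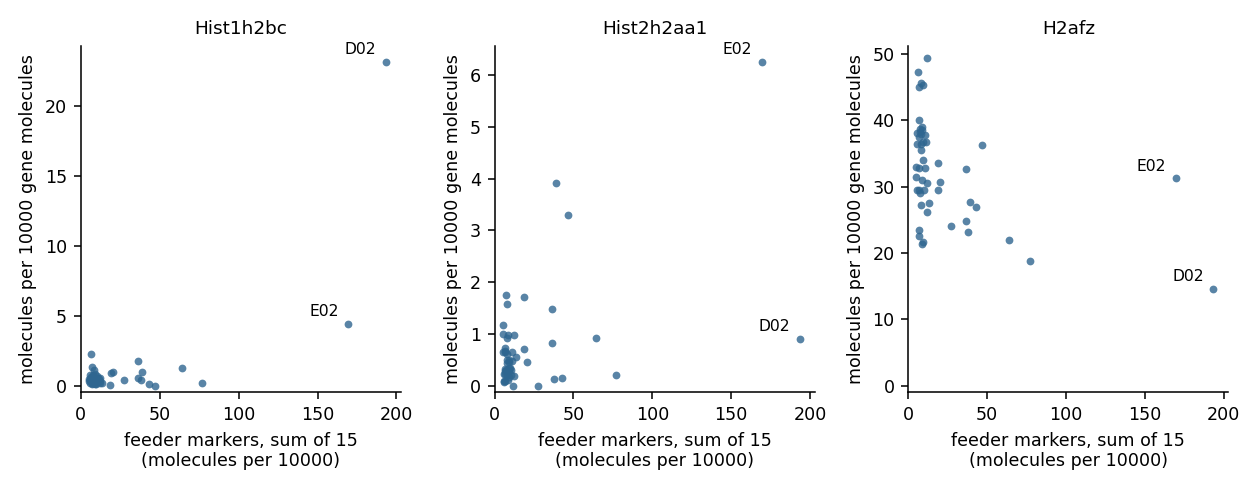
Level of Hist1h2bc, of both Hist2h2aa1 rows together and of H2afz against the summed level of 15 feeder fibroblast markers in the 51 RNA-rich wells, all in molecules per 10000 gene molecules. D02 and E02 stand to the right of all other wells. No molecule of the Hist2h2aa1 rows was unique. Hist1h2bc is highest in D02 at 23.1, and H2afz is lowest there at 14.6.

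Cluster genes of some histone types followed each other across wells, and others did not. Across RNA-rich wells, Spearman's rho of the H2A sum was 0.58 with the H3 sum, 0.38 with the H4 sum and 0.09 with the H2B sum. H2B and H4 had 0.45, and H3 and H4 0.46. Hist1h2ae, whose molecules were all unique, had 0.65 with the Hist1h2ap sum. Cluster and replacement sums had 0.19. In low-RNA wells the H2A sum had -0.05 with H3, 0.23 with H4 and 0.21 with H2B, from few molecules per well. All these values are over 51 or 45 cells of 1 culture that share a chip and a total as divisor, and they are descriptions.

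The cluster sum had low rank correlations with the cell cycle lists. The G1/S list has 30 genes, led in level by Dut (4.59), Pcna (3.78), Lig1 (3.11) and Mcm7 (2.63), which serve nucleotide supply and DNA replication. The G2/M list has 30, led by Hmgb2 (11.4), Top2a (5.06), Cks2 (4.73) and Ccnb1 (3.74). In RNA-rich wells the cluster sum had a rho of 0.13 with G1/S and 0.10 with G2/M. The replacement sum had 0.34 with G1/S and 0.15 with G2/M, and H2afz alone had 0.47 and -0.06. Without D02 and E02 the replacement sum had 0.27 and 0.04. In low-RNA wells the cluster sum had 0.02 with G1/S and -0.11 with G2/M. Cells at known cycle stages were not part of the design, so the lists stand in for stage. The cluster sum covers only captured RNA, described as polyadenylated.

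**Figure D5:**
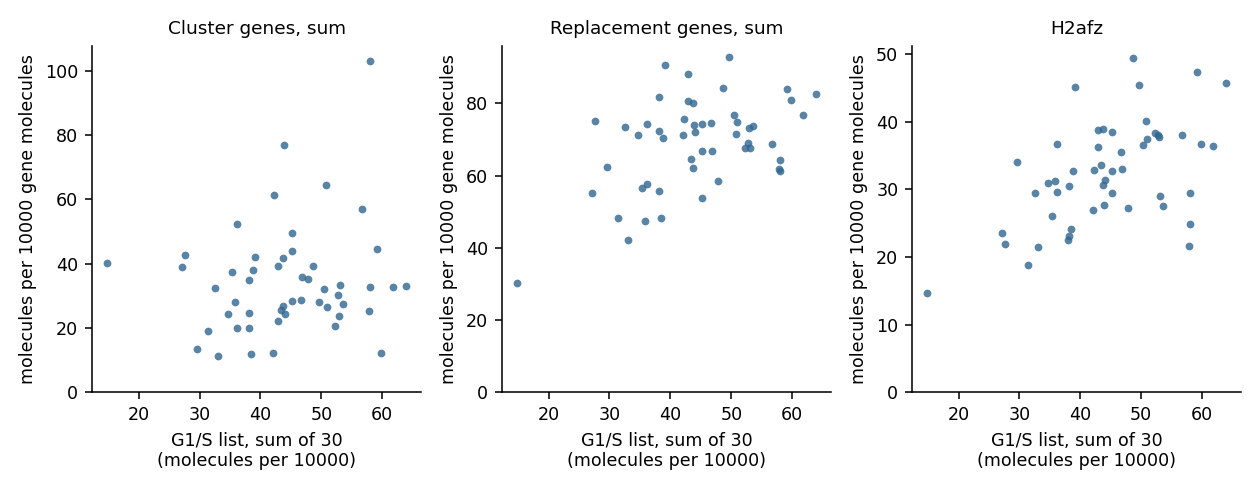
Summed level of the cluster genes, summed level of the replacement genes, and level of H2afz against the summed level of the 30 G1/S genes in the 51 RNA-rich wells, all in molecules per 10000 gene molecules. Spearman's rho is 0.13 for the cluster sum, 0.34 for the replacement sum and 0.47 for H2afz. The lowest G1/S point is D02, at 14.8.

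The genes that process histone messengers and the chaperones that carry histone proteins were also counted. Of 19 listed processing factors 18 were in the table, all detected, with the highest levels for Snrpb (5.41) and Snrpd3 (3.01), core proteins of small nuclear RNPs, Slbp (2.04) and Srrt (1.12). Slbp was found in 92 wells and had a rho of -0.07 with the cluster sum and 0.37 with H2afz in RNA-rich wells. Of 29 listed chaperones 28 were in the table, led by Npm1 (46.4), Set (14.9), Nasp (10.5), which binds H3 and H4, and Nap1l1 (9.30), which binds H2A and H2B. The chaperone sum had a rho of 0.66 with H2afz, 0.51 with the replacement sum and 0.08 with the cluster sum. Of chaperones with a level of at least 0.1, 3 of 28 had a ratio of low-RNA to RNA-rich wells of 0.5 or less, where 11.5% of all genes did. A ratio of 2 or more was found for 4 of 28, where 5.03% of all genes had one. Of processing factors, 1 of 17 had a ratio of 0.5 or less and 0 of 17 a ratio of 2 or more. Atrx, which places H3.3 at repeats, averaged 7.27 in low-RNA wells and 3.02 in RNA-rich wells. Set, Hmgb2 and Ccnb1 had under 50% unique molecules.

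Among 2690 genes with a mean level of at least 0.5, those most like the cluster sum across the 51 RNA-rich wells were Spen (rho 0.53), Tnpo2 (0.48), Atp5j2 (0.47), Tceb2 (0.47) and Tmem234 (0.46), where the median over all these genes was -0.01. For the replacement sum they were Rbm3 (0.66), Bex4 (0.59), Hmgb2 (0.58), Hmgb1 (0.58) and Frg1 (0.56), where the median was 0.06. Bex4 and Hmgb1 had under 5% unique molecules. Both groups are the highest of 2690 values, and the rho that unrelated genes would reach was not tested. Gene totals had a rho of -0.25 with the cluster sum and 0.33 with the replacement sum in the same wells.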

How the data were processed

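The deposited table holds molecule counts per gene and well, with reads of several matches placed by the authors at their most 5′ exonic match, per the file headers. Bowtie and the build mm10 (GRCm38) are named, without a version, in the submitters' processing notes. The table has 25914 features: 24264 genes, 96 spike-ins and 1554 repeat types. All 96 wells were used, and no doublet caller was run. Members and gene lists were chosen with earlier results of these data known. Genes were named by a rule on level (12 highest cluster genes, replacement genes of at least 0.1, 4 highest of each list), on calls above the technical level and on similarity, with additions marked in the text. The division at 40000 gene molecules follows a gap in the totals. Technical variation was fitted on spike-ins averaging at least 0.1 molecules by a gamma model with identity link (squared CV equal to 3.33 divided by the mean, plus 0.0097), and the procedure was tested on simulated data. Intervals cover counting error only. Alternatives changed the wells, members, normalization, thresholds, statistic and depth. The work used Python 3.11.15 with matplotlib 3.10.9, numpy 2.4.6, scipy 1.17.1, pandas 2.3.3 and statsmodels 0.14.6.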

Additional observations from a re-analysis of the deposited data

How the results depend on the processing

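Of 89 results recomputed under other settings, 65 stayed within the limits used (1 SD over wells for a level, the counting interval for a share or ratio, 0.1 for a rank correlation, 1.5 times for a count) and 24 moved. No result changed direction, and the cause of a move was not tested. Counting only members with at least 50% unique molecules gave a median cluster sum of 8.10 and a cluster share of 19.2%. With these members the cluster ratio of low-RNA to RNA-rich wells was 0.520, and rho between the replacement sum and G1/S was 0.45. Of 30 such members 3 were above the technical level, fewer by construction, beside 5.91% of all genes. Dividing by spike-in totals gave ratios of 0.193 for cluster and 0.214 for replacement genes. It gave a rho of 0.24 between the cluster sum and G2/M, and of 0.70 with G1/S and 0.51 with G2/M for the replacement sum. Leaving mitochondrially encoded genes and Rn45s out of the total gave a median replacement sum of 75.8 and ratios of 0.842 for cluster and 0.878 for replacement genes. Ratios of medians were 0.660 and 0.618. Pearson's r of log2(level + 1) was 0.58 with G1/S and 0.45 with G2/M for the replacement sum. Without C03, H03 and H12 the cluster share was 32.4%. A limit of 3 times the fit left 2 of 46 members above the technical level, where it called 2.42% of all genes. Counts without normalization gave 12 of 48 members, a smaller share than the 35.7% of all genes. Chosen after the data were seen, leaving out A03 gave a cluster share of 31.4% and leaving out Hist1h2ap 21.1%. Also chosen then, leaving out D02 and E02 gave a rho of 0.041 between the replacement sum and G2/M. Low-RNA wells alone, chosen likewise, had 0 of 16 members above the technical level, where 0.594% of all genes were.

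No paired analysis was possible because the library forms share each column of counts and no test was run between them. Depth limits the single genes most: in low-RNA wells the H4 sum rests on a median of 2 molecules per well, so a gene absent from such a well is not shown to be unexpressed. Levels of genes with few unique molecules depend on where the authors placed reads of several matches.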
